A study of Gallus gallus with 12 samples.

Results

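The genes described here are those of fatty acid oxidation together with PPARA, the nuclear receptor that regulates them, and PDK4, a kinase that acts on the use of glucose as fuel. The members were chosen by gene symbol and not by a cutoff on measured values, though earlier results of these data were known. Of 9 listed symbols, 7 had a row (PPARA, CPT1A, CPT2, ACADL, HADHA, EHHADH and PDK4) among the 18332 genes of the expression tables, while no row carried the symbol ACADM or HADHB, and these 2 genes were not analysed here.

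RNA was sequenced from 4 groups of 3 libraries each: livers of normal chickens on a high-fat diet (HN liver), livers of normal chickens on a normal diet (NN liver), abdominal fats of HN chickens (HN fat) and abdominal fats of NN chickens (NN fat). All birds were purebred female Xinghua chickens without the dwarf allele, labelled as 8 weeks old. By the methods, birds were 8 weeks old when a feeding period of 2 weeks began, so they were older at slaughter. Dwarf chickens of the same study were not analysed here. The values are FPKM, that is fragments scaled to transcript length and to the mapped fragments of the library, so levels of different genes can be set side by side on this scale. The labels number the libraries of each group 1 to 3 and do not state whether a liver and a fat of the same number came from the same bird.

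Fatty acids that enter a cell are joined to coenzyme A, passed into the mitochondrion by the carnitine shuttle and shortened by a repeated cycle of 4 reactions called beta-oxidation. Peroxisomes run a related cycle with their own enzymes, mainly on very long and branched chains. In mammals PPARA binds fatty acids and switches on many of these genes in liver, above all during fasting, and liver also turns the acetyl-CoA produced into ketone bodies. Birds make most of their new fat in the liver and store it in adipose tissue, so both tissues handle fatty acids in bulk.

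Each labelled tissue carried its own markers. The summed level of 7 hepatocyte markers (ALB and APOA1 among them) ranged over 73694 to 82128 FPKM in HN livers, against 82154 to 93277 FPKM in NN livers, and that of 6 adipocyte markers (FABP4, ADIPOQ and PLIN1 among them) over 13934 to 16477 FPKM in HN fats, against 14801 to 19146 FPKM in NN fats. In the other tissue the sums were lower. The hepatocyte sums were 3520 to 7841 FPKM in HN fats, against 8602 to 10585 FPKM in NN fats, and most of each was APOA1. Among fats, ALB was highest in NN replicate 2, at 96.5 FPKM. The adipocyte sums were 187 to 275 FPKM in HN livers, against 113 to 158 FPKM in NN livers. Between 10735 and 11272 genes reached 1 FPKM in a liver and between 12104 and 12412 in a fat. HN liver replicate 2 and HN fat replicate 2 had the lowest mean correlation with the other libraries of their groups (0.9492 and 0.9525 across genes), and both had outlying values of some genes described below. Several values below are also given without single libraries.

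Liver held far more mRNA of the oxidation genes than abdominal fat, on both diets, with PDK4 the exception. All 7 genes passed the test between liver and fat, as did 65.6% of all genes tested in HN and 76.0% in NN chickens, with 6 of the 7 higher in liver and PDK4 higher in fat, whose call was lost under median-ratio scaling. By contrast, none of the 7 passed the test between HN and NN chickens, in liver (0% of all genes) or in fat (0.00807% of all genes). In liver, PPARA, CPT1A and EHHADH were lower in every HN liver than in any NN liver, as were 15.0% of all genes. ACADL was higher in every HN liver, as were 6.12% of all genes.

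**Figure D1:**
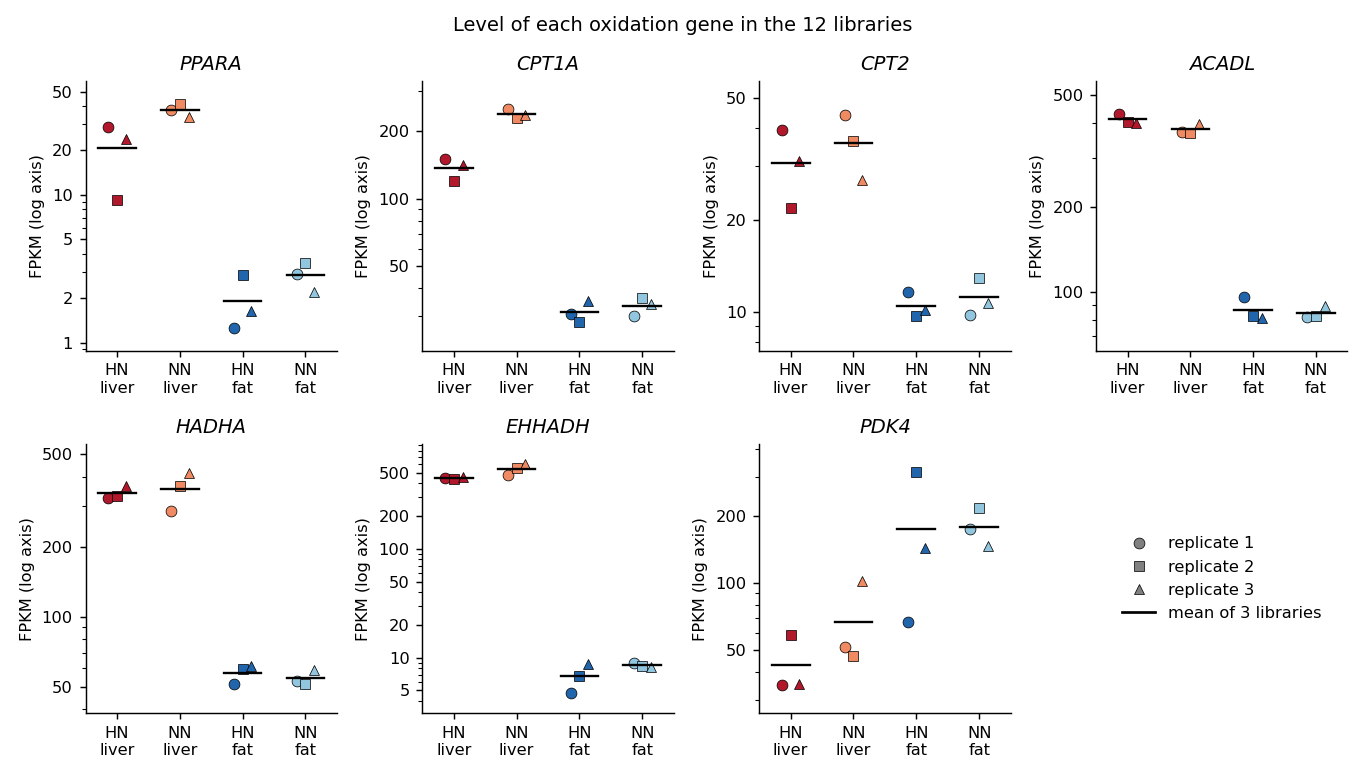
FPKM of the 7 genes in each of the 12 libraries, on a log axis, for HN liver, NN liver, HN fat and NN fat; points are libraries (the symbol gives the replicate number) and lines are means of 3 libraries. Livers lie above fats for every gene but PDK4, and CPT1A shows HN livers at 120 to 150.1 FPKM, below NN livers at 228 to 249 FPKM.

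PPARA (NCBI gene 374120), the receptor itself, had 28.8, 9.30 and 24.0 FPKM in HN livers, against 37.9, 41.3 and 33.9 FPKM in NN livers. Every HN liver lay below every NN liver, and replicate 2 was the lowest of the HN livers. In abdominal fat PPARA had 1.26, 2.87 and 1.64 FPKM in HN birds, against 2.93, 3.48 and 2.21 FPKM in NN birds, and these groups overlapped. The means were 20.7 ± 10.1 FPKM in HN livers, against 37.7 ± 3.74 FPKM in NN livers, and 1.92 ± 0.842 FPKM in HN fats, against 2.87 ± 0.637 FPKM in NN fats (SD, n = 3 each). Compared with fat, PPARA was higher in liver by 2.79 ± 0.42 (SE) on the log2 scale in HN chickens (adjusted p = 0.000944 from limma) and by 3.33 ± 0.15 (SE) in NN chickens (adjusted p = 1.46e-06). Without HN liver replicate 2 the HN value was 3.26. All fold changes were computed from log2(FPKM + 1), so that those of weakly expressed genes come out too small.

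Between diets, PPARA in liver had a log2 fold change of -0.97 (95% interval -1.89 to -0.05, unadjusted p = 0.0423, adjusted p = 0.407 from limma), and the call threshold was an adjusted p of 0.05. Without HN liver replicate 2 the log2 fold change was -0.50 (adjusted p = 0.452), and with any other liver left out it was between -1.27 and -0.90. In fat it was -0.43 (95% interval -1.02 to 0.16, adjusted p = 0.799), with a range of -0.65 without HN fat replicate 2 (unadjusted p = 0.0233, adjusted p = 0.999 from limma) to -0.26 without HN fat replicate 1. In bulk tissue, fewer cells of a type and less RNA per cell cannot be told apart.

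The place of PPARA within its receptor family was opposite in the 2 tissues. Summing PPARA, PPARD (a receptor found in most tissues) and PPARG (the receptor that drives fat cell differentiation), PPARA made up 29.4% to 85.3% of the total in HN livers, against 87.9% to 90.9% in NN livers, but 1.79% to 2.24% in HN fats and 2.61% to 3.21% in NN fats. PPARG had a median of 1.25 FPKM in HN livers, where replicate 2 was at 6.08 FPKM, against 0.68 to 1.08 FPKM in NN livers. It had 44.8 to 69.7 FPKM in HN fats and 59.3 to 68.4 FPKM in NN fats. PPARG was lower in liver than in fat by a log2 fold change of -4.18 in HN chickens (adjusted p = 0.000272 from limma) and of -5.07 in NN chickens (adjusted p = 9.67e-08). Without HN liver replicate 2 the HN value of PPARG was -4.77. HN liver replicate 2 was the only liver in which PPARA was not the most abundant of the 3 receptors, since PPARD had 16.2 FPKM there and 3.09 to 4.62 FPKM in the other 5 livers.

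**Figure D2:**
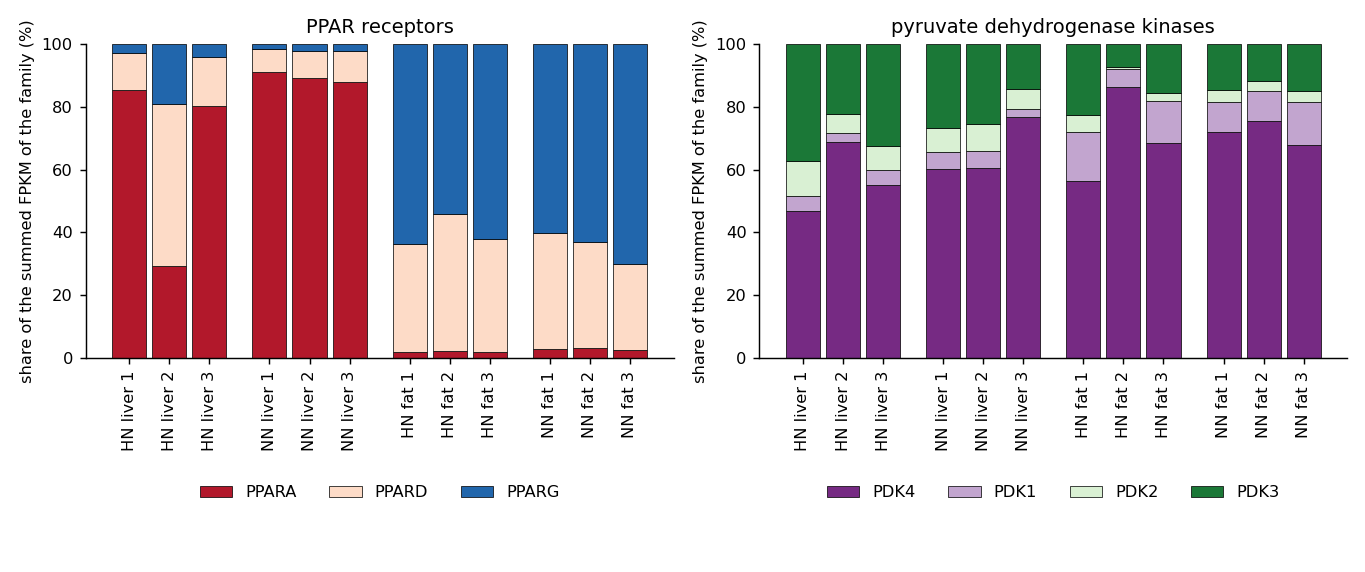
Share of the summed FPKM of the PPAR receptors (left) and of the pyruvate dehydrogenase kinases (right) taken by each gene, one stacked bar per library, in percent. PPARA takes 87.9% to 90.9% in NN livers and at most 3.21% in any fat, whereas PDK4 takes 46.7% or more of the kinases in every library.

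CPT1A (NCBI gene 423118) encodes the liver form of carnitine palmitoyltransferase 1, which joins long-chain fatty acids to carnitine at the outer mitochondrial membrane and sets the pace of their entry. It had 150.1, 119.9 and 142 FPKM in HN livers, against 249, 228 and 235 FPKM in NN livers. The 2 sets did not overlap, and the highest HN liver was well below the lowest NN liver. The mean was 137 ± 15.6 FPKM over the 3 HN livers, against 237 ± 10.9 FPKM over the 3 NN livers (SD), a ratio of 0.578. The log2 fold change was -0.79 (SE 0.14, 95% interval -1.13 to -0.45, unadjusted p = 0.00101 from limma), and only 32 of the 11278 genes tested had a p as small. The adjusted p was 0.349, above the threshold, and an exact permutation test of 3 livers against 3 gave the smallest p it can reach, 0.1. With each liver left out in turn the log2 fold change of CPT1A lay between -0.86 and -0.70, with adjusted p from 0.315 to 0.823. When all 12 libraries entered 1 fit and so shared the variance of each gene, this difference had an adjusted p of 0.0329 from limma, so whether CPT1A passed depended on which libraries entered the fit.

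In abdominal fat CPT1A had 30.8, 28.2 and 35.0 FPKM in HN birds, against 30.1, 36.2 and 33.95 FPKM in NN birds. These values were interleaved, and the log2 fold change was -0.09 (95% interval -0.40 to 0.22, adjusted p = 0.861 from limma), between -0.17 and -0.021 with each fat left out. The diet difference of CPT1A in liver minus that in fat was -0.70 on the log2 scale (95% interval -1.09 to -0.30, unadjusted p = 0.00246, adjusted p = 0.718 from limma on all 12 libraries), so a difference between tissues did not pass the threshold either. CPT1A was higher in liver than in fat by a log2 fold change of 2.10 in HN chickens (adjusted p = 3.74e-05) and of 2.79 in NN chickens (adjusted p = 6.40e-07).

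CPT2 (NCBI gene 424649), the inner-membrane enzyme that hands the fatty acid back to coenzyme A, was the least abundant shuttle enzyme of the pair and varied among birds of 1 group. It had 39.4, 21.9 and 31.1 FPKM in HN livers, against 43.95, 36.35 and 27.1 FPKM in NN livers, with overlap. In fats it had 11.6, 9.70 and 10.2 FPKM in HN birds, against 9.82, 13.0 and 10.8 FPKM in NN birds, with overlap as well. The diet log2 fold change was -0.22 in liver (95% interval -0.86 to 0.41) and -0.08 in fat (95% interval -0.43 to 0.27). The liver value rested on single libraries: it was -0.0057 without HN liver replicate 2, -0.067 without NN liver replicate 1 and -0.42 without HN liver replicate 1. CPT2 was higher in liver than in fat by a log2 fold change of 1.43 in HN chickens (adjusted p = 0.00122 from limma) and of 1.58 in NN chickens (adjusted p = 0.000192), the smallest tissue difference among the 6 genes higher in liver.

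The balance of the 2 shuttle enzymes is given by the ratio of CPT1A to CPT2 FPKM within a library, which does not depend on library scaling. It was 3.81, 5.49 and 4.57 in HN livers, against 5.68, 6.27 and 8.65 in NN livers. Each HN liver lay below each NN liver (exact permutation p = 0.1, the smallest possible), and the highest HN liver and the lowest NN liver were close to each other. In fat the ratio was 3.00 ± 0.401 in HN birds and 3.00 ± 0.189 in NN birds (SD, n = 3 each). No row carried the symbol CPT1B or CPT1C, so the ratio covers CPT1A alone among the forms of carnitine palmitoyltransferase 1.

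ACADL (NCBI gene 424005), the long-chain acyl-CoA dehydrogenase that opens the mitochondrial cycle, varied little among the livers of 1 group. It had 430.4, 402 and 399 FPKM in HN livers, against 372, 368 and 396 FPKM in NN livers. All HN livers were higher, although the gap between the nearest livers was small, and the log2 fold change was 0.12 (95% interval -0.18 to 0.42, adjusted p = 0.715 from limma). Fats had 96.4, 82.35 and 81.05 FPKM in HN birds, against 81.85, 82.3 and 89.4 FPKM in NN birds, and overlapped. ACADL was higher in liver than in fat by a log2 fold change of 2.24 in HN chickens (adjusted p = 1.65e-05 from limma) and of 2.15 in NN chickens (adjusted p = 1.23e-06).

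HADHA (NCBI gene 395929) encodes the alpha subunit of the mitochondrial trifunctional protein, which carries out the middle steps of the cycle on long chains. It had 325, 332 and 366 FPKM in HN livers, against 285, 366 and 417 FPKM in NN livers. The HN values lay within the range of the NN values, and the log2 fold change of -0.05 (95% interval -0.47 to 0.37) turned to 0.06 under median-ratio scaling. Fats had 51.2, 59.9 and 61.2 FPKM in HN birds, against 52.8, 51.3 and 58.9 FPKM in NN birds, again with overlap. HADHA was higher in liver than in fat by a log2 fold change of 2.55 in HN chickens (adjusted p = 9.80e-06 from limma) and of 2.67 in NN chickens (adjusted p = 4.28e-06).

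EHHADH (NCBI gene 424877), the peroxisomal bifunctional enzyme that carries out the hydratase and dehydrogenase steps of the peroxisomal cycle, was the most liver-biased of the 7 genes and the most abundant of them in both liver groups. It had 451, 439 and 460.25 FPKM in HN livers, against 474, 558 and 605 FPKM in NN livers. The HN livers were tightly grouped and all lay below the NN livers, with a log2 fold change of -0.27 (95% interval -0.62 to 0.08, adjusted p = 0.482 from limma). Fats had 4.71, 6.79 and 8.83 FPKM in HN birds, against 9.04, 8.44 and 8.20 FPKM in NN birds, where the highest HN fat exceeded the 2 lower NN fats. Compared with fat, EHHADH was higher in liver by a log2 fold change of 5.89 in HN chickens (adjusted p = 1.38e-06) and of 5.83 in NN chickens (adjusted p = 5.62e-08 from limma).

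PDK4 (NCBI gene 420570) encodes pyruvate dehydrogenase kinase 4, which switches off the entry of pyruvate into the citric acid cycle and so spares glucose when fatty acids are burned. It had 34.8, 58.65 and 35.3 FPKM in HN livers, against 51.5, 47.1 and 102 FPKM in NN livers, and 66.7, 316 and 144 FPKM in HN fats, against 176, 217 and 147 FPKM in NN fats. The spread within groups was wide: the HN fats ranged from the lowest fat value, replicate 1, to the highest, replicate 2. Every fat was above every liver on the same diet. The diet log2 fold change was -0.58 in liver (95% interval -1.41 to 0.24, adjusted p = 0.520) and -0.29 in fat (95% interval -1.46 to 0.88, adjusted p = 0.877 from limma), and both moved with single libraries. The liver value was -0.82 without HN liver replicate 2 and -0.24 without NN liver replicate 3, and the fat value was -0.85 without HN fat replicate 2 and 0.26 without HN fat replicate 1.

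Between tissues PDK4 was lower in liver, by a log2 fold change of -1.77 in HN chickens (adjusted p = 0.0213 from limma) and of -1.48 in NN chickens (adjusted p = 0.00274). In HN chickens the call was lost without HN fat replicate 3 (adjusted p = 0.0585), HN liver replicate 1 (0.0606) or HN liver replicate 3 (0.0604), and the log2 fold change was -1.21 without HN fat replicate 2, where the adjusted p was 0.0373. Both calls were also lost under median-ratio scaling, with log2 fold changes of -1.01 (adjusted p = 0.172) in HN and -0.73 (adjusted p = 0.0659) in NN chickens. PDK4 was the most abundant of the 4 pyruvate dehydrogenase kinases in every library, holding 46.7% to 68.7% of their total in HN livers, 60.3% to 76.6% in NN livers, 56.2% to 86.3% in HN fats and 67.7% to 75.4% in NN fats.

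Read together, 7 of 7 genes passed the test between liver and fat in HN chickens, where 65.6% of all 12511 genes tested did, and 7 of 7 in NN chickens, where 76.0% of 12492 genes did. By direction, 6 of 7 were higher in liver, against 14.8% of all genes in HN chickens and 16.6% in NN chickens, and 1 of 7 was lower in liver, against 50.7% and 59.4%. Groups did not overlap for any of the 7 genes, as for 70.8% of all genes in HN and 78.5% in NN chickens. The median log2 fold change of the 7 genes was 2.24 in HN and 2.67 in NN chickens, and that of all genes was -0.64 and -0.65. Under median-ratio scaling the median of all genes moved to 0.01 in both, so differences between tissues are relative to this shift. At an unadjusted p under 0.05 the split of all genes in HN chickens was then 4025 higher and 3824 lower, in place of 1990 and 6669, and in NN chickens 4293 and 4209, in place of 2154 and 7560. Quantile normalization gave 3555 and 4067 in HN and 3895 and 4580 in NN chickens. The 6 genes higher in liver passed under both of these scalings.

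**Figure D3:**
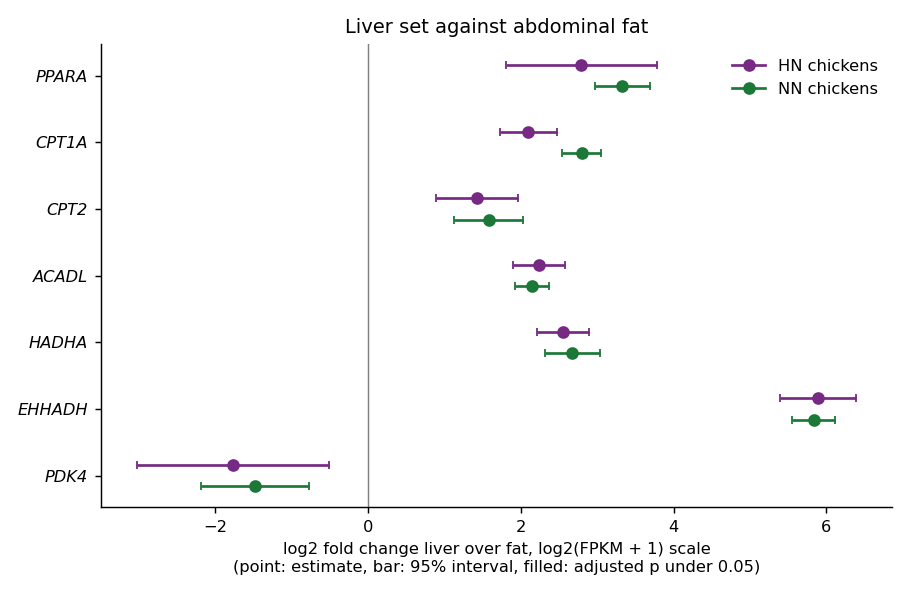
Log2 fold change of liver over abdominal fat for each of the 7 genes, in HN chickens and in NN chickens, on the log2(FPKM + 1) scale; points are estimates, bars are 95% intervals and filled points have an adjusted p under 0.05. EHHADH stands apart at 5.89 and 5.83, and PDK4 is the only gene below 0.

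The level in fat, as a share of that in liver on the same diet, differed between genes. Mean FPKM of EHHADH in fat was 1.51% of that in liver in HN chickens and 1.57% in NN chickens, and that of PPARA was 9.30% in HN and 7.62% in NN chickens. HADHA (16.9% in HN and 15.3% in NN chickens), ACADL (21.1% and 22.3%) and CPT2 (34.1% and 31.2%) had larger shares. CPT1A had 22.8% in HN and 14.1% in NN chickens, so its place in this order differed with the diet, and PDK4 had 409% in HN and 269% in NN chickens. Of the 7 hepatocyte markers, ALB, FGB, AHSG, SERPINC1 and HNF4A in fat were at 0.0411% to 0.183% of their liver levels in HN and at 0.104% to 0.260% in NN chickens, below EHHADH. TF was at 1.53% in HN and 2.39% in NN chickens, and APOA1, which was abundant in fat, at 13.3% and 31.6%.

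Between diets in liver, 0 of 7 genes passed the test, as did 0 of all 11278 genes (0%). At an unadjusted p under 0.05 from limma there were 2 of the 7, PPARA and CPT1A, both lower in HN livers, against 8.54% of all genes lower (3.42% were higher). This count was 1 of 7, CPT1A alone, with any single NN liver left out, under median-ratio scaling and with no filter. It was 3 of 7 under quantile normalization. The count of all genes lower at this p moved too, from 963 of 11278 in the main fit. It was 347 of 11246 without NN liver replicate 1, 485 of 11244 without replicate 2 and 670 of 11254 without replicate 3. With no filter it was 1300 of 17290. The groups did not overlap for 3 of 7 genes lower in HN livers, against 15.0% of all genes, and for 1 of 7 higher, against 6.12%. The median log2 fold change was -0.27 for the 7 genes and -0.06 for all genes. Among all genes at an unadjusted p under 0.05, 386 were higher and 963 lower in HN livers, while median-ratio scaling gave 800 higher and 575 lower and quantile normalization 468 and 667. The log2 fold changes of PPARA, CPT1A and EHHADH were negative under both scalings, and that of ACADL was 0.22 under median-ratio scaling and 0.0038 under quantile normalization.

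Marker levels also differed between the liver groups. The hepatocyte marker sums given above were lower in every HN liver than in any NN liver, with the nearest pair almost equal, and this followed ALB, at 32466, 19544 and 25944 FPKM in HN livers, against 55672, 53525 and 37626 FPKM in NN livers. All other hepatocyte markers overlapped between the groups. APOA1 had 33052, 41036 and 48616 FPKM in HN livers, against 27734, 25855 and 34894 FPKM in NN livers. FGB had 2833, 4210 and 1256 FPKM in HN livers, against 2992, 2992 and 2862 FPKM in NN livers. The HN mean was lower for ALB and FGB, and higher for APOA1, AHSG, TF, HNF4A and SERPINC1. The sums of the 6 adipocyte markers spanned 187 to 275 FPKM in HN livers, against 113 to 158 FPKM in NN livers, and most of each sum was CIDEC, a lipid droplet protein, at 166, 251 and 177 FPKM in HN livers, against 71.2, 123 and 104 FPKM in NN livers. LPL was lower in every HN liver, at 10.8, 5.47 and 8.56 FPKM, against 14.6, 12.8 and 11.3 FPKM in NN livers, and FABP4, ADIPOQ and PLIN1 overlapped. The endothelium sums spanned 21.9 to 38.9 FPKM in HN livers, against 34.3 to 53.8 FPKM in NN livers, and no marker of these 3 lists was at 0 in all libraries of a liver group. Their part in the diet differences was not tested.

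**Figure D4:**
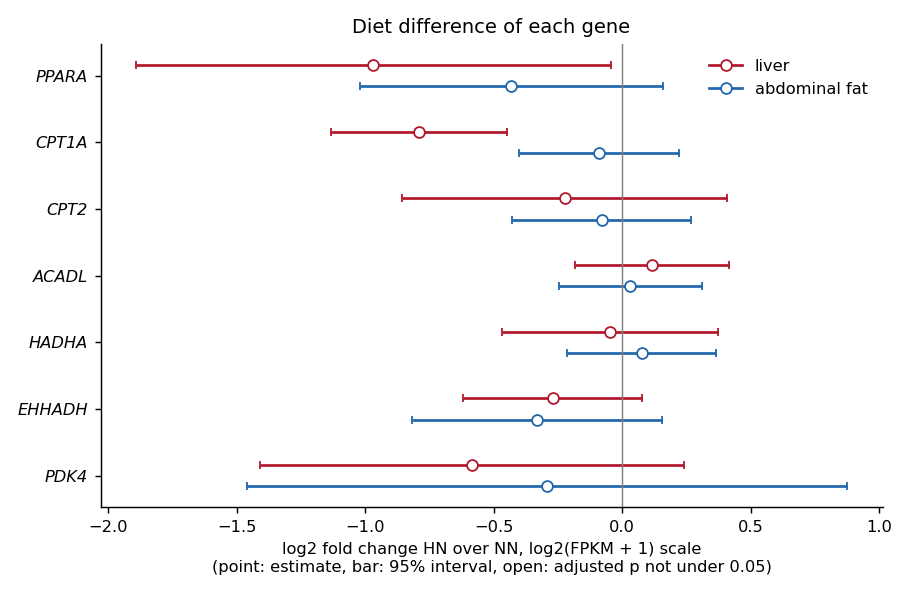
Log2 fold change of HN over NN for each of the 7 genes in liver and in abdominal fat, on the log2(FPKM + 1) scale; points are estimates, bars are 95% intervals and open points have an adjusted p of 0.05 or more. In liver the intervals of PPARA and CPT1A lie below 0, and all intervals in fat include 0.

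Between diets in abdominal fat, 0 of 7 genes passed, against 1 of 12394 genes (0.00807%), and 0 of 7 had an unadjusted p under 0.05 from limma, against 4.68% of all genes. Without HN fat replicate 2 there were 2 of 7, PPARA and PDK4 (-0.85), both lower in HN fats. In that fit 316 of all 12402 genes were at this p, 118 of them lower. Without HN fat replicate 3 there was 1 of 7, EHHADH (-0.52), also lower. There 1508 of all 12398 genes were at this p, 850 of them lower. None of the members named here passed the adjusted threshold. All 7 had overlapping groups, whereas 10.3% of all genes did not overlap. The median log2 fold change was -0.09 for the 7 genes and -0.07 for all genes. The interaction of diet and tissue was past the threshold for 0 of 7 genes and 0 of 12544 genes (0%), and at an unadjusted p under 0.05 for 1 of 7, CPT1A, with a negative value, against 4.54% of all genes in either direction and 2.50% with a negative value. With the replicate number as a block it was past the threshold for 3 genes, and with liver and fat of 1 number treated as 1 bird for 4 genes, none of them among the 7 in either fit.

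The order of the 4 group means was the same for PPARA, CPT1A, CPT2 and EHHADH: NN liver, HN liver, NN fat, HN fat, from high to low. HADHA differed from this only in having HN fat above NN fat, and ACADL had HN above NN in both tissues. PDK4 ran NN fat, HN fat, NN liver, HN liver. Neighbours in these orders did not overlap between the lower liver group and the higher fat group for the 6 genes higher in liver, and the liver groups overlapped for CPT2, HADHA and PDK4. For PDK4 every pair of neighbouring groups overlapped, and the fat groups overlapped for all 7.

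The genes most like PPARA, CPT1A and PDK4 in pattern were sought among 9146 genes by the smaller of 2 correlations, one over the 6 livers and one over the 6 fats, which share their diets, so a diet difference alone can raise the value. For PPARA they were CEBPG (0.918), DEPDC6 (0.918) and FAM214A (0.899). For CPT1A they were PCGF3 (0.972), GAREM (0.968) and SLC12A7 (0.967). For PDK4 they were SIK1 (0.896), PRKCA (0.894) and SPSB1 (0.874). These genes were picked as the highest of 9146, with only 6 libraries per correlation, so the size of the values is not a further result. Shared regulation was not tested. No member of the 7 was among the 3 nearest genes of PPARA, CPT1A or PDK4, and the nearest genes of the other members were not sought.

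The rest of the pathway was followed with 9 lists of 143 further genes. In liver against fat, 78 of 136 tested genes were higher and 33 lower in HN chickens, and 82 were higher and 40 lower in NN chickens. Of all genes, 14.8% were higher and 50.7% lower in HN and 16.6% and 59.4% in NN chickens, and the counts of the single lists below are to be read beside these shares. Under median-ratio scaling these counts were 93 and 17 in HN and 95 and 22 in NN chickens, and the shares above do not apply to them. At an unadjusted p under 0.05 from limma, this scaling gave 96 and 19 list genes in HN chickens, beside 4025 and 3824 of all 12511 genes. In NN chickens it gave 97 and 22 list genes, beside 4293 and 4209 of all 12492 genes. The median log2 fold change over the lists was 0.86 in HN and 0.90 in NN chickens, beside -0.64 and -0.65 for all genes.

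Most genes of the oxidation lists were higher in liver. Of 24 genes of mitochondrial beta-oxidation, 20 were higher and 2 lower in liver in HN chickens, and 21 higher and 2 lower in NN chickens. ECI2, an isomerase for unsaturated fatty acids, had log2 fold changes of 4.42 in HN and 4.43 in NN chickens, ACAD11, an acyl-CoA dehydrogenase, 2.73 and 2.71, and ACAT1, the mitochondrial acetoacetyl-CoA thiolase, 2.07 and 2.50. Of 21 peroxisomal genes, 15 were higher and 2 lower in HN chickens, and 17 higher and 2 lower in NN chickens. ACAA1, the peroxisomal thiolase, had 3.59 and 3.83, ACOX2, a branched-chain oxidase, 3.65 and 3.51, and DECR2, a dienoyl-CoA reductase, 3.29 and 3.15. Each of the genes named here passed the test on both diets.

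Among 8 carnitine genes, 6 were higher and 1 lower in liver on each diet. BBOX1, the last enzyme of carnitine synthesis, had log2 fold changes of 5.21 in HN and 5.88 in NN chickens, CRAT, carnitine acetyltransferase, 2.18 and 2.51, and SLC22A5, the carnitine transporter of the cell membrane, 1.47 and 1.62. Among 14 tested genes of fatty acid activation, 6 were higher and 4 lower in HN chickens, and 7 higher and 4 lower in NN chickens. SLC27A2, a very long-chain acyl-CoA synthetase, had 6.99 and 7.01 and ACSL5, a long-chain acyl-CoA synthetase, 4.31 and 4.32, while ACSS1, which activates acetate in mitochondria, was lower in liver at -4.01 and -3.97.

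Of 7 tested ketone body genes, 4 were higher and 2 lower in liver in HN chickens, and 4 higher and 3 lower in NN chickens. BDH1, which interconverts the 2 main ketone bodies, was lower in liver, with log2 fold changes of -3.35 in HN and -3.30 in NN chickens.

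The co-regulators had no common direction: of 24 tested, 9 were higher and 8 lower in liver in HN chickens, and 10 higher and 11 lower in NN chickens. CREB3L3, a liver transcription factor, had log2 fold changes of 7.50 and 7.55, NR0B2, a repressor receptor, 4.65 and 5.25, NR1H4, the bile acid receptor, 4.34 and 5.09, and PPARGC1A, the coactivator PGC-1alpha, 2.06 and 2.36. PPARD was lower in liver at -2.21 in HN and -2.81 in NN chickens, and the HN call was lost under median-ratio scaling (adjusted p = 0.0570 from limma). Among 17 tested PPARA targets outside oxidation, 9 were higher and 7 lower in HN chickens, and 8 and 8 in NN chickens. FABP1, the liver fatty acid-binding protein, had 10.83 and 8.96, APOA5, an apolipoprotein, 7.22 and 7.05, and ANGPTL4, a secreted inhibitor of lipoprotein lipase, 2.03 and 1.95. The FABP1 values rest on low levels in fat, at 0.34, 0.88 and 0.91 FPKM in HN and 1.14, 6.11 and 0.67 FPKM in NN birds. With 1 library left out, the NN value of FABP1 was 8.55 to 9.60. FABP3, the fatty acid-binding protein of muscle and heart in mammals, was lower in liver at -9.11 and -9.07.

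In the pyruvate dehydrogenase list, 8 of 13 genes were higher in liver on each diet, and 2 were lower in HN and 3 in NN chickens. MPC1 and MPC2, the 2 subunits of the mitochondrial pyruvate carrier, had log2 fold changes of 3.69 and 2.79 in HN and 3.80 and 2.75 in NN chickens. PDPR, a regulator of the phosphatase that reverses PDK4 action, had 2.48 and 2.50. Among 8 tested genes of malonyl-CoA and AMPK, 1 was higher and 5 lower in liver in HN chickens, and 1 higher and 6 lower in NN chickens. ACACB, the carboxylase whose malonyl-CoA inhibits CPT1, had -3.83 and -3.19, PRKAG2, an AMPK subunit, -1.81 and -1.11, and PRKAA1, a catalytic AMPK subunit, -1.05 on both diets. The PRKAA1 call in HN chickens was lost under quantile normalization (adjusted p = 0.306) and median-ratio scaling (adjusted p = 0.131), and the PRKAG2 call in NN chickens under median-ratio scaling (adjusted p = 0.200 from limma).

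Between diets, none of the list genes passed the threshold in either tissue. In liver, 8 of 136 tested genes were higher and 15 lower in HN livers at an unadjusted p under 0.05 from limma, where 3.42% and 8.54% of all genes were. Median-ratio scaling gave 13 and 7, beside 800 and 575 of all 11278 genes. The groups did not overlap for 10 higher and 21 lower, near the shares of all genes (6.12% and 15.0%), and the median log2 fold change was -0.09, beside -0.06 for all genes. With 1 liver left out, list counts and counts of all genes moved together, from 386 higher and 963 lower of all 11278 genes. Without HN liver replicate 2 there were 11 higher and 8 lower of 135 tested, beside 499 and 680 of all genes. Without NN liver replicate 1 there were 3 and 4, beside 216 and 347 of all genes. Without NN liver replicate 2 there were 4 and 9, beside 249 and 485, and without NN liver replicate 3 there were 6 and 9, beside 324 and 670.

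**Figure D5:**
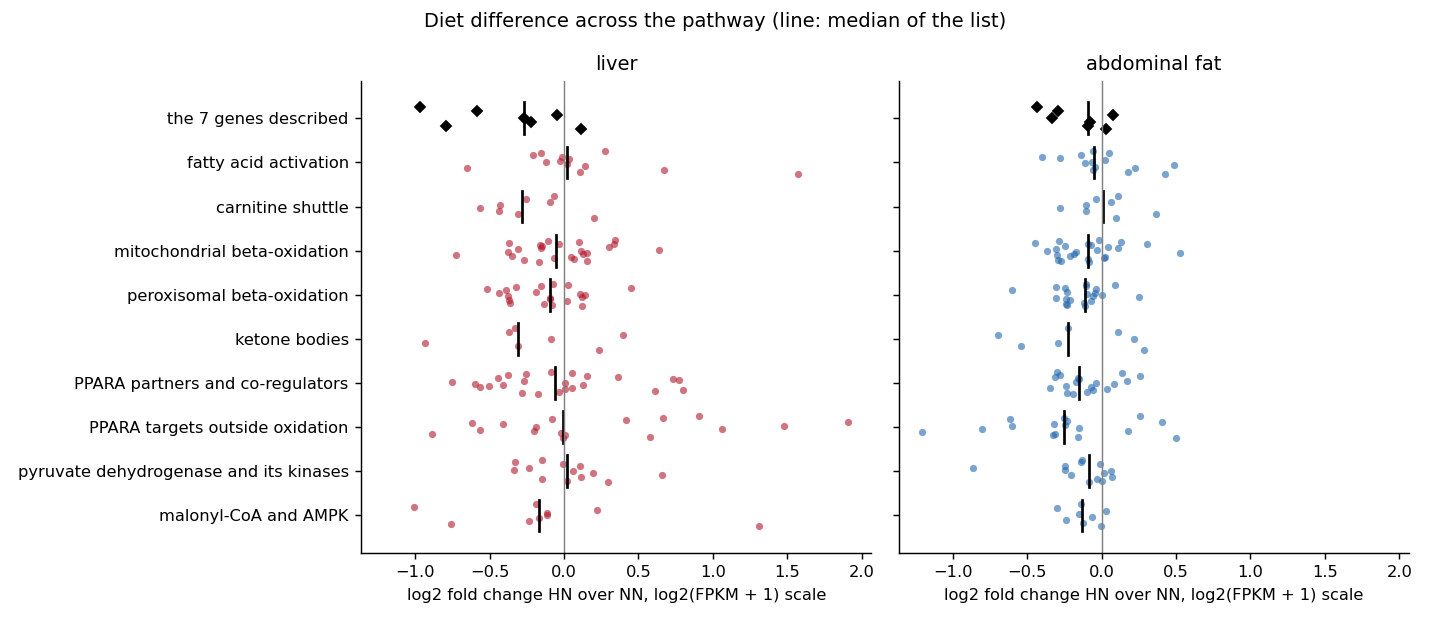
Log2 fold change of HN over NN of every tested gene of the 9 pathway lists, with the 7 genes described on the top row, in liver and in abdominal fat; points are genes and vertical lines are list medians. The medians lie between -0.31 (ketone bodies) and 0.02 (fatty acid activation, pyruvate dehydrogenase and its kinases) in liver, and no gene shown passed an adjusted p of 0.05.

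The 5 list genes with the smallest p in liver came from 4 of the 9 lists. Since they were picked by p in this same comparison, the separation of their groups is not a further result. Of all genes, 6.12% were higher and 15.0% lower in every HN liver. FABP1 had 3376, 2554 and 3330 FPKM in HN livers, against 1592, 1536 and 1284 FPKM in NN livers. All HN livers were higher, by 1.06 on the log2 scale (SE 0.18, adjusted p = 0.313 from limma). ACACA, acetyl-CoA carboxylase 1, whose malonyl-CoA product is the building block of new fatty acids and also an inhibitor of CPT1, had 164, 59.5 and 66.1 FPKM in HN livers, against 43.5, 28.3 and 32.6 FPKM in NN livers. All HN livers were again higher, replicate 1 by most, and the log2 difference was 1.31 (SE 0.40, adjusted p = 0.392 from limma). ACAT1 had 353, 359 and 416 FPKM in HN livers, against 584, 654 and 623 FPKM in NN livers. All HN livers were lower, and the log2 difference was -0.72 (SE 0.14, adjusted p = 0.382 from limma). PRKAG2 (log2 fold change -1.01) and NCOA2, a receptor coactivator (-0.57), were also lower in every HN liver, each with an adjusted p of 0.392 from limma.

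In abdominal fat, 1 of 130 tested list genes was higher and 4 were lower in HN birds at an unadjusted p under 0.05 from limma, where 2.39% and 2.29% of all genes were. The 5 genes were ANGPTL4, at 16.0, 16.4 and 10.48 FPKM in HN fats, against 9, 9.90 and 9.96 FPKM in NN fats (log2 fold change 0.50), and BDH2 (-0.54), ECHS1, the hydratase of the mitochondrial cycle (-0.36), PDK2 (-0.86) and G0S2, an inhibitor of fat breakdown (-0.60). The groups of each of these 5 genes did not overlap, as for 10.3% of all genes. Since the 5 were picked by p in this same comparison, this is not a further result. All 5 had an adjusted p of 0.799 from limma. With 1 library left out, list counts and counts of all genes moved together, from 296 higher and 284 lower of all 12394 genes. Without HN fat replicate 2 there were 0 higher and 5 lower list genes, beside 198 and 118 of all genes. Without HN fat replicate 3 there were 2 and 15, beside 658 and 850 of all genes. Without NN fat replicate 3 there were 1 and 11, beside 355 and 429. Without NN fat replicate 1 there were 0 and 2, beside 168 and 166, and without NN fat replicate 2 there were 0 and 3, beside 159 and 111.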

How the data were processed

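Total RNA of livers and abdominal fats was sequenced on the BGISEQ-500 platform, and the authors deposited FPKM per gene for each library, with 2 decimals. The submitters' processing notes name HISAT2 2.0.4, Bowtie2 2.2.5 and RSEM 1.2.12, without their roles. The genome build and the depth of each library are not given in the sources used here, so no coordinates or counting intervals are given, and genes near 1 FPKM are less certain than abundant ones. The members and gene lists were chosen with earlier results of these data known.

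Groups and replicate numbers came from the sample titles. Genes averaging 1 FPKM or more across the libraries of a fit were compared on log2(FPKM + 1) with limma 3.58.1 in R 4.3.3 (lmFit, eBayes with trend), two-sided, with Benjamini-Hochberg adjustment over all tested genes and a threshold of 0.05. Diets were compared within each tissue, tissues within each diet, and the interaction was fitted on all 12 libraries. All 5 comparisons share libraries in part: each group of 3 enters 1 diet comparison, 1 tissue comparison and the interaction. For single genes an exact permutation test (two-sided) was added, which cannot go below 0.1 with 3 libraries against 3. The methods describe 3 livers and 3 abdominal fats a group, so livers of 1 group are separate birds, as p-values over them assume; that the fats are is not stated outright, nor which liver and fat share a bird. The tests were also run on simulated data with known changes and independent noise for each gene and library. Those data held no outlying library, so they do not show how often a real diet difference would be called here. Python 3.11.15 with pandas 2.3.3 and scipy 1.17.1 was used for the other steps.

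Genes outside the 7 were named by rule: PPARGC1A, ANGPTL4, PPARG and PPARD, up to 3 genes per list with the largest called difference between liver and fat in NN chickens, the 5 list genes with the smallest p in each diet comparison, and the 3 genes most like PPARA, CPT1A and PDK4. ACADVL and FGF21 of the same rule were not analysed here. Some genes that the rule names are not reported here. ALB and the genes under other observations were chosen after their values were seen. PDK1, PDK2 and PDK3 entered as a family sum. Of 155 list symbols, 143 genes beside the 7 were found. Of all gene identifiers, 15244 were found in a RefSeq gene table, where all 7 genes carry the same symbols. Same-numbered liver and fat deviations from the group means correlated at 0.119 to 0.397 in HN and 0.232 to 0.290 in NN chickens. Differently numbered liver and fat pairs had -0.373 to 0.187 in HN and -0.171 to -0.084 in NN chickens. The highest of them, HN liver 3 with fat 1 (0.187), was above HN liver 3 with fat 3 (0.119). Same-numbered HN and NN libraries correlated at -0.037 to 0.400 in liver and 0.040 to 0.223 in fat, so all fat pairs were positive too. These values cannot show whether same-numbered libraries came from 1 bird. No pairing entered the main fits or the fit of all 12 libraries. Their p-values treat liver and fat as independent, and blocks by replicate number or bird were alternatives only. Alternatives were log2(FPKM + 0.1), no filter, quantile normalization, median-ratio scaling, a replicate block, all 12 libraries in 1 fit and each library left out. A block by bird and the fits without both HN libraries numbered 2 were added after seeing the data.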

Additional observations from a re-analysis of the deposited data

Results flagged for a closer look

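BBOX1, the last enzyme of carnitine synthesis, was flagged because its HN and NN values separated in opposite directions in the 2 tissues. Since these same values picked it, neither the separation of its groups nor the unadjusted p below is a further result. It had 167, 136 and 168 FPKM in HN livers, against 174, 193 and 217 FPKM in NN livers, so every HN liver was lower. The same held for 15.0% of all genes tested in liver. In abdominal fat BBOX1 was weakly expressed. It had 3.69, 3.13 and 2.98 FPKM in HN birds, against 1.74, 2.53 and 2.75 FPKM in NN birds, so every HN fat was higher. This direction held for 3.49% of all genes tested in fat. The difference between the 2 diet effects of BBOX1 was tested: it was -0.67 on the log2 scale (standard error 0.21, unadjusted p = 0.00948, adjusted p = 0.998 from limma over 12544 genes) and did not pass the threshold. Opposite diet effects in the 2 tissues were therefore not shown.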

How the results depend on the processing

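For the 7 genes, 208 of 217 values under alternatives other than leaving out a library kept their direction and their side of the threshold, as did 239 of 252 with 1 library left out. All 12 libraries in 1 fit called 33 genes between diets in liver, 1 of them among the 7 (CPT1A), and 0 in fat. For the interaction, the replicate block called 3 genes, the block by bird 4 and leaving out 1 library 0 to 4. The blocks changed no call of the 7 genes, and the replicate block gave 8545 calls between tissues in HN and 9669 in NN chickens. Directions of values that had not passed the test turned as follows. Under median-ratio scaling HADHA in liver was 0.058. In the interaction, quantile normalization gave ACADL -0.042 and EHHADH -0.22, and leaving out both HN libraries numbered 2 gave PPARA 0.15, CPT2 0.022 and PDK4 0.027. With 1 library left out, the diet difference of HADHA in liver was -0.20 to 0.076, in fat those of ACADL -0.047 to 0.076, PDK4 -0.85 to 0.26 and CPT2 -0.16 to 0.025, and in the interaction those of CPT2 -0.34 to 0.073, EHHADH -0.14 to 0.25 and PDK4 -0.85 to 0.27. The causes were not tested. Each group held 3 libraries, and no depth was given. A diet difference of the size seen for PPARA or CPT1A was not called in the main fits, which does not show that it is absent.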

Other observations

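Other fat-handling genes of the lists, chosen after their values were seen, set HN liver replicate 2 apart from the other livers. LPIN1, a phosphatidate phosphatase and coactivator, had 2.48, 43.1 and 1.60 FPKM in HN livers, against 4.54, 2.2 and 3.29 FPKM in NN livers. PLIN2, a lipid droplet coat protein, had 105, 388 and 57.6 FPKM in HN livers, against 33.9, 54.2 and 22.7 FPKM in NN livers. G0S2 had 161, 781 and 81.0 FPKM in HN livers, against 56.0, 39.4 and 208 FPKM in NN livers. In abdominal fat LPIN1 was likewise highest in HN replicate 2, as PDK4 was. LPIN1 had 26.2, 121 and 37.7 FPKM in HN fats, against 85.8, 40.5 and 42.7 FPKM in NN fats. PLIN2 was also highest in HN fat replicate 2, at 192 FPKM. G0S2 went the other way and was lowest there, at 654 FPKM, against 1027 to 1528 FPKM in the other fats.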
